A study of Homo sapiens with 8 samples.

Results

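The genes described here feed the Hippo kinase cascade from above: the giant cadherins FAT1, FAT4 and DCHS1, the scaffolds WWC1, WWC2 and FRMD6, the kinases TAOK1, TAOK3 and MAP4K4, and the striatin STRN3. Members were chosen by name. A member was measured where a transcript cluster (the probes that the array groups as 1 locus) carried its symbol and no other, and the cluster with the highest mean was used where there were several. This held for 9 of the 10 genes, among 22411 genes measured in all. The only cluster of WWC2 is annotated to WWC2 and CLDN22 together, so its value is given apart. The study reduced YAP1 and TAZ, the co-activators that the cascade restrains, in SK-N-MC cells, a long-established line of Ewing sarcoma, a tumour of bone and soft tissue. RNA of 4 cultures given YAP1 and TAZ siRNAs together was compared with RNA of 4 cultures that received non-targeting control siRNA. Both siRNA treatments used 10 nM with Viromer Blue as transfection reagent, and RNA was taken at 72 h. All values come from 1 cell line, and per the design text the cultures were handled in parallel, so variation between separate experiments was not measured.

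In the Hippo cascade the MST kinases STK3 and STK4 activate the LATS kinases, which phosphorylate YAP1 and TAZ and keep them out of the nucleus, where they would act through TEAD proteins. DCHS1 on one cell is the ligand of FAT4 on its neighbour, a pair whose fly counterparts are best known for feeding the pathway. KIBRA, the product of WWC1, and FRMD6 hold kinases at the cell cortex. TAO kinases phosphorylate MST, MAP4K kinases act on LATS beside MST, and STRN3 is a subunit of STRIPAK, which brings the phosphatase PP2A to MST and MAP4K4.

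YAP1 fell to 6.38 ± 0.070 on the log2 scale with YAP1/TAZ siRNA, against 7.68 ± 0.039 with control siRNA (SD, n = 4 each; difference −1.31, limma adjusted p = 4.73e-05). WWTR1, the gene of TAZ, fell to 5.86 ± 0.080, against 6.48 ± 0.084 with control siRNA (difference −0.62, limma adjusted p = 0.00898). In linear terms YAP1 fell by 59.6% and WWTR1 fell by 34.9%. RNA was taken from whole cultures, so fewer cells with a transcript and less of it per cell cannot be told apart. The WWTR1 call was lost without control replicate 1 (limma adjusted p = 0.0515). YAP1/TAZ siRNA replicate 2 and control replicate 4 stood apart from the other arrays, with loadings of 0.57 and 0.59 on a first principal component that held 46.0% of the variance, against −0.31 to 0.071 for the others. The members' differences are therefore given with and without this pair of arrays. Without it YAP1 differed by −1.33 (limma adjusted p = 0.000846) and WWTR1 by −0.61 (adjusted p = 0.0225). All 9 Ewing sarcoma markers measured, CD99 and NKX2-2 among them, had mean signals over 5.03, the median of all genes. This held for 1 of 5 neuroblastoma, 1 of 6 epithelial, 0 of 4 blood, 0 of 3 endothelial and 4 of 5 fibroblast markers. Of these markers LIPI, an Ewing sarcoma marker, passed across all genes and fell by 0.63 with YAP1/TAZ siRNA (limma adjusted p = 0.0136).

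None of the 9 upstream genes passed the test across all genes. By limma 0 of 9 had an adjusted p under 0.05, where 0.214% of all genes did (48 of 22411). Their adjusted p ran from 0.197 for FRMD6 to 0.983 for WWC1. At an unadjusted p under 0.05 there were 3, namely FRMD6, MAP4K4 and TAOK3, where 10.3% of all genes were under it. The differences, YAP1/TAZ siRNA minus control siRNA, were between −0.32 for FRMD6 and 0.30 for DCHS1 on the log2 scale. Their median was 0.098 with 6 above 0 and 3 below, against a median of 0.0075 over all genes. Of all 22411 genes 11842 lay above 0 and 10337 below. The 95% limma intervals, not adjusted for the number of genes, all lay inside a 2-fold change, with the outermost bounds at −0.50 for FRMD6 and 0.80 for DCHS1. Signal over background was not analysed for any gene, so these intervals bound the signal and not the transcript. FAT1 and WWC1 were dimmer than the median gene, and TAOK3, at a mean of 5.60, was not far above the median of 5.03. The arrays of the groups did not overlap for 4 of the 9 genes, FRMD6 and TAOK3 with YAP1/TAZ siRNA below and MAP4K4 and STRN3 above, where 6.22% of all genes were so separated (4.19% with YAP1/TAZ siRNA above, 2.03% below). Without the arrays that stood apart 0 of 9 passed by limma, where 0.839% of all genes did, and 5 of 9 did not overlap, where 21.4% of all genes did not. In that fit 5 of 9 had an unadjusted p under 0.05, as did 16.6% of all genes, more than with all arrays. Since the genes were picked with results of these arrays known, all of these counts, with and without the arrays that stood apart, are descriptions.

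**Figure D1:**
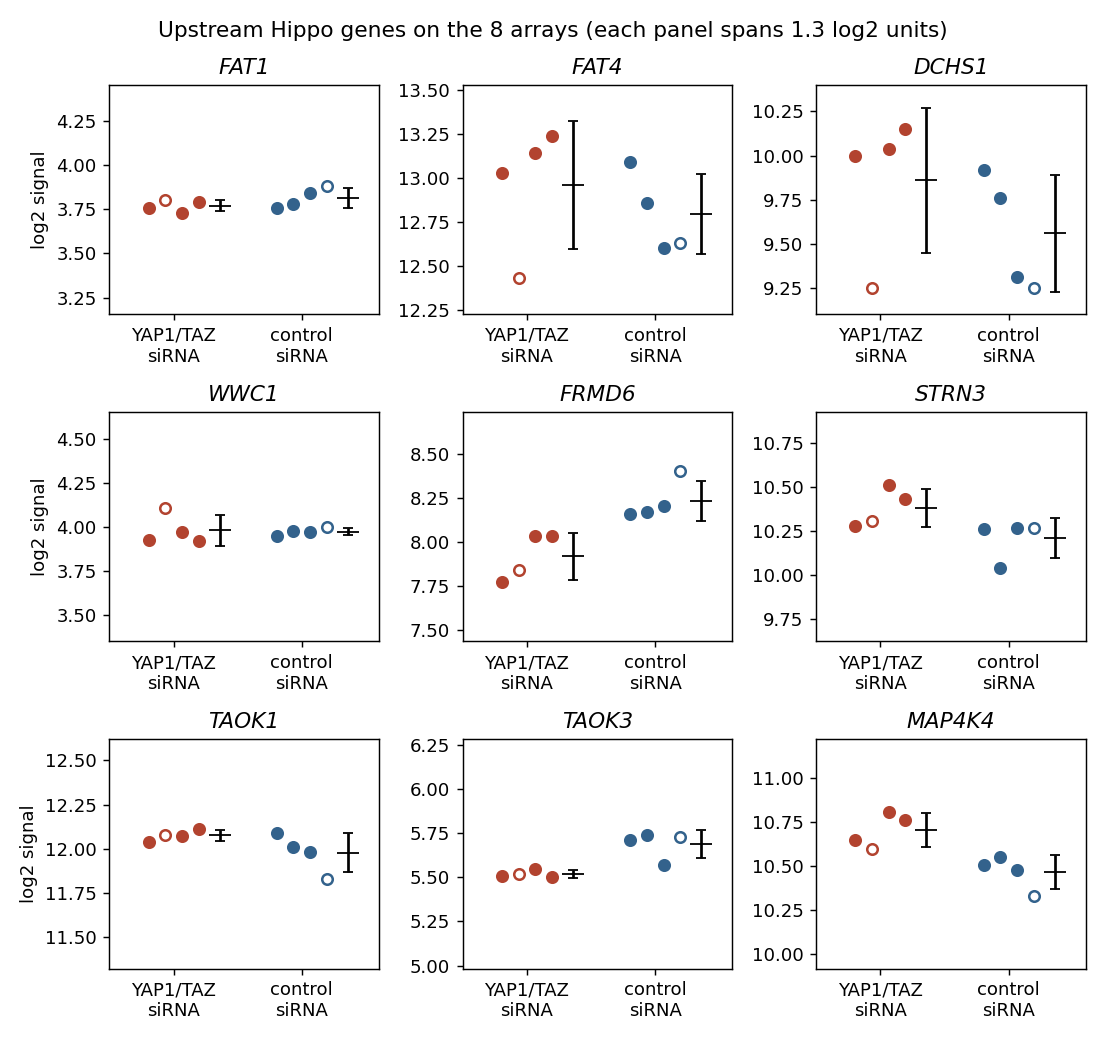
Log2 signal (vertical axis) of the 9 measured genes on the 4 YAP1/TAZ siRNA arrays (red) and the 4 control siRNA arrays (blue), with mean and SD beside each group. Open circles are YAP1/TAZ siRNA replicate 2 and control replicate 4. FRMD6 and TAOK3 sit lower and MAP4K4 and STRN3 higher on every YAP1/TAZ siRNA array, and FAT4 and DCHS1 spread most within groups.

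**Figure D2:**
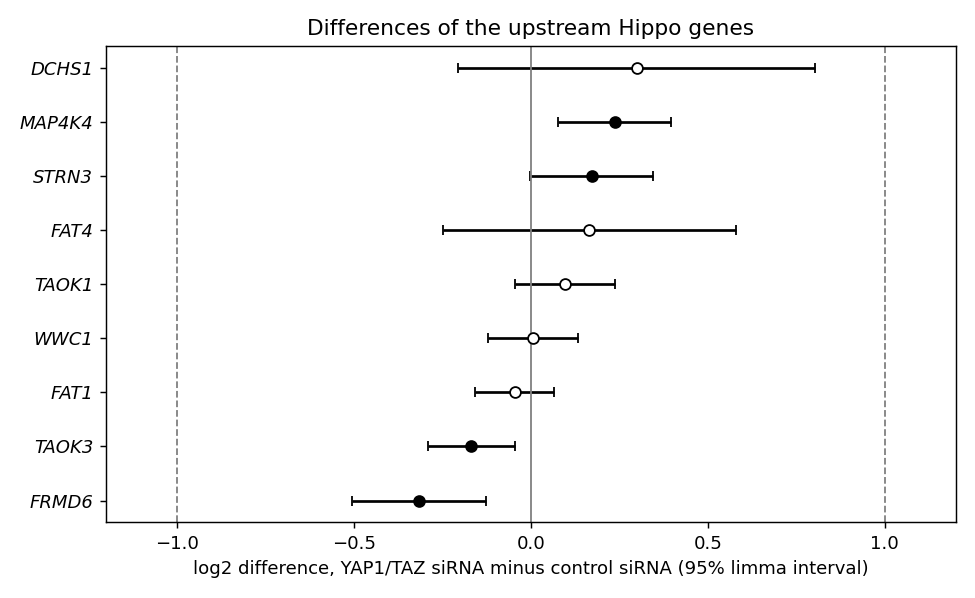
Log2 difference, YAP1/TAZ siRNA minus control siRNA (horizontal axis), with its 95% limma interval for each gene. Filled points mark genes whose groups do not overlap and dashed lines a 2-fold change. The intervals of FRMD6, TAOK3 and MAP4K4 leave out 0, and none reaches a dashed line.

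Because YAP1 and TAZ reach DNA through TEAD proteins, the start regions of the members were searched for the 6 letters of the TEAD core motif, GGAATG, on both strands. Start regions were 300 bases long, 250 before to 50 after the gene's start, from RefSeq on GRCh38.p14. Of the 10 members, 8 matched an entry, with 12 start regions in all. The motif was in 2 of these 12, one of WWC2 and one of TAOK3, and in 14.0% of all 35116 start regions. The WWC2 region (chr4:183099007-183099306, plus strand) holds 2 matches, at −222 and −208 from the start, and one of the TAOK3 regions (chr12:118190486-118190785, minus strand) holds 1, at −234. They are shown with that of FRMD6 (chr14:51488878-51489177, plus strand), the gene with the smallest p, which has none of these letters in this window. Capitals mark the motif.
WWC2: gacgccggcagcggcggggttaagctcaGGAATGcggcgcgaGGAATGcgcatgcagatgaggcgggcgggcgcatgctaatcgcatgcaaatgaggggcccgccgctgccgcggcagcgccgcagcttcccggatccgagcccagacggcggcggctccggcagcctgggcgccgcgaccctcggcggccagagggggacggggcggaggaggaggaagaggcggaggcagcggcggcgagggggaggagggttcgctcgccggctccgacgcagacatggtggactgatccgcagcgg
TAOK3: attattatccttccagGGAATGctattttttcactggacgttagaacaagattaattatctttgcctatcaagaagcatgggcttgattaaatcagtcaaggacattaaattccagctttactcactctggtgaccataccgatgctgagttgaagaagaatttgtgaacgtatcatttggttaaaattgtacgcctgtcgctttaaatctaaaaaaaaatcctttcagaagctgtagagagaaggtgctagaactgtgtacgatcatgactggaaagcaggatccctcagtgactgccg
FRMD6: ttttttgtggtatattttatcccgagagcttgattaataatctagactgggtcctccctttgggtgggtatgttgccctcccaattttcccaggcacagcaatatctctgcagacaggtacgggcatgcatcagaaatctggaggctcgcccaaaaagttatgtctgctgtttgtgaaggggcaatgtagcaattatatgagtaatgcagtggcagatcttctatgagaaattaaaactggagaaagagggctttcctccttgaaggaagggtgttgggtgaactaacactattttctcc
A match gives the letters in the window and no measurement of binding. Sequence outside these windows was not searched, so a window without the letters does not show that a gene lacks TEAD sites.

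Of the cadherins, FAT4 and DCHS1 differed more between arrays of one group than between the groups. FAT4, the receptor of the pair, read 13.03, 12.43, 13.14 and 13.24 with YAP1/TAZ siRNA replicates 1 to 4, against 13.09, 12.86, 12.60 and 12.63 with control replicates 1 to 4. The groups overlapped, and YAP1/TAZ siRNA held both the highest array and the lowest. The difference was 0.17 (SE 0.18, 95% interval −0.25 to 0.58, limma adjusted p = 0.845). DCHS1, its ligand, read 10.00, 9.25, 10.04 and 10.15 with YAP1/TAZ siRNA, against 9.92, 9.76, 9.31 and 9.25 with control siRNA. The replicate that stood apart was again the lowest of the YAP1/TAZ siRNA arrays. The difference was 0.30 (SE 0.22, 95% interval −0.20 to 0.80, limma adjusted p = 0.734).

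The same arrays were low for ligand and receptor. The 3 lowest arrays for FAT4 (12.43 to 12.63) were the 3 lowest for DCHS1 (9.25 to 9.31), namely YAP1/TAZ siRNA replicate 2 and control replicates 3 and 4. On the other 5 arrays FAT4 was 12.86 to 13.24 and DCHS1 9.76 to 10.15. These 3 arrays also had the 3 highest loadings on the first principal component, and the part of the component in these values was not tested. Since the arrays lie in separate groups of 3 and 5, no pooled correlation between the genes is given. Within-group spread was 0.30 for FAT4 and 0.37 for DCHS1 (pooled SD), larger than that of 93.6% and 96.5% of all genes. Single arrays moved both differences. Without YAP1/TAZ siRNA replicate 2 FAT4 differed by 0.34 (limma adjusted p = 0.222) and DCHS1 by 0.50 (adjusted p = 0.189). FAT4 differed by 0.26 without control replicate 1, and by 0.072 to 0.11 without YAP1/TAZ siRNA replicate 3 or 4 or control replicate 3 or 4. For DCHS1 the lowest difference was 0.20, without control replicate 4. None of these passed. Without the arrays that stood apart FAT4 differed by 0.29 (limma adjusted p = 0.309) and DCHS1 by 0.40 (limma adjusted p = 0.245). Every YAP1/TAZ siRNA array for DCHS1 then lay above every control array, a separation that, in either direction, 21.4% of all genes showed with 3 arrays against 3.

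**Figure D3:**
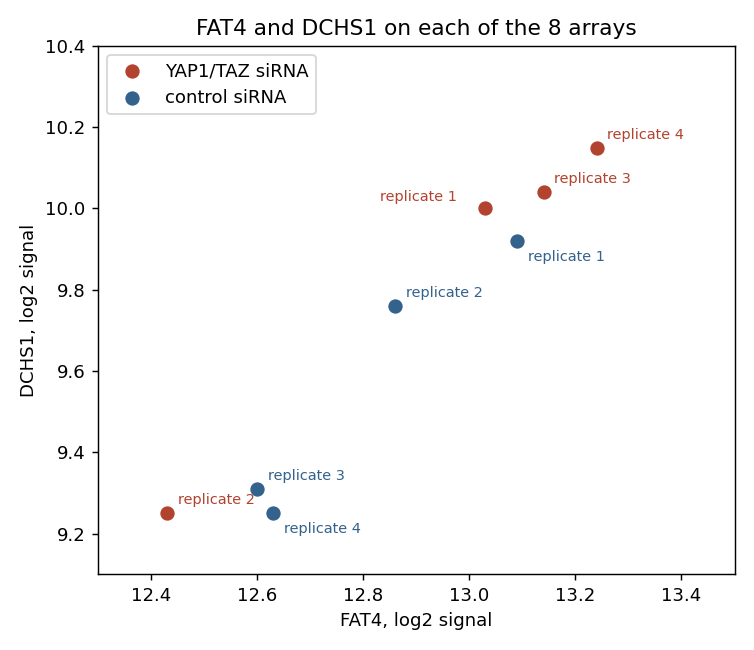
FAT4 (horizontal axis) and DCHS1 (vertical axis) log2 signal on each of the 8 arrays, YAP1/TAZ siRNA in red and control siRNA in blue, with replicate numbers. YAP1/TAZ siRNA replicate 2 and control replicates 3 and 4 lie together at the lower left, and the other 5 arrays at the upper right.

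FAT1, an atypical cadherin related to FAT4, was dim, at 3.73 to 3.80 with YAP1/TAZ siRNA and 3.76 to 3.88 with control siRNA, below the median of all genes. The groups overlapped and the difference was −0.045 (SE 0.049, limma adjusted p = 0.843), or −0.033 without the arrays that stood apart (adjusted p = 0.788). How far such a signal lay over the array's background was not analysed here. FAT1 and FAT4 were set against each other as a within-array log2 difference, FAT1 minus FAT4, which was −9.19 ± 0.38 with YAP1/TAZ siRNA and −8.98 ± 0.28 with control siRNA (SD, n = 4 each). The 2 clusters' own brightness is not compared by this, only the shift between groups. FAT1 hardly varied between arrays (pooled within-group SD 0.045), so this contrast mostly mirrors FAT4 and cannot show whether both genes respond alike. The shift of −0.21 was not beyond the spread (2-sided exact permutation p = 0.429, adjusted p = 0.429 over 2 paralogue contrasts). It was −0.40 without YAP1/TAZ siRNA replicate 2, −0.33 without control replicate 1 and −0.32 without the arrays that stood apart. Leaving out YAP1/TAZ siRNA replicate 3 or 4, or control replicate 3 or 4, gave −0.14 to −0.12. The planned contrast of WWC1 with WWC2 could not be made, since WWC2 has no cluster of its own.

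Among the scaffolds, FRMD6 had the smallest p of the 9 genes. FRMD6, a FERM-domain protein also called Willin, read 7.77, 7.84, 8.03 and 8.03 with YAP1/TAZ siRNA, against 8.16, 8.17, 8.20 and 8.40 with control siRNA. Every YAP1/TAZ siRNA array lay below every control array, with 0.13 between the groups. The difference was −0.32 (SE 0.083, 95% interval −0.50 to −0.13, limma adjusted p = 0.197). The highest reading came from control replicate 4, an array that stood apart. Without that pair the difference was −0.23 (limma adjusted p = 0.209), and the groups still did not overlap.

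WWC1 was dim too, at 3.92 to 4.11 with YAP1/TAZ siRNA and 3.95 to 4.00 with control siRNA, and its groups overlapped. The difference was 0.0075 (SE 0.056, limma adjusted p = 0.983), a value whose sign turned in 6 of 17 other settings, among them the one without the arrays that stood apart (−0.027). Its second transcript cluster read 3.19 ± 0.12 with YAP1/TAZ siRNA and 3.35 ± 0.084 with control siRNA (SD, n = 4 each), a difference of −0.17 (limma adjusted p = 0.737 over 67528 clusters). Neither cluster passed, and since the difference of the first was near 0 with no stable sign, their directions cannot be compared. The cluster shared by WWC2, the KIBRA paralogue, and CLDN22, a claudin, was brighter. It read 8.97, 8.96, 9.11 and 9.02 with YAP1/TAZ siRNA, against 9.16, 9.27, 9.16 and 9.16 with control siRNA. Each YAP1/TAZ siRNA array was below each control array, but the difference of −0.17 (SE 0.055, limma adjusted p = 0.308) did not pass, and which of the genes it reads cannot be told apart.

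MAP4K4 and STRN3 were the genes read higher on every YAP1/TAZ siRNA array. MAP4K4, a kinase that can phosphorylate LATS directly, read 10.65, 10.60, 10.81 and 10.76 with YAP1/TAZ siRNA, against 10.51, 10.55, 10.48 and 10.33 with control siRNA. The groups were 0.05 apart, with control replicate 4 the lowest of all. The difference was 0.24 (SE 0.070, 95% interval 0.078 to 0.40, limma adjusted p = 0.258). Without the arrays that stood apart it was 0.23 (limma adjusted p = 0.126). With those arrays as a block its adjusted p was 0.0561, the lowest that any of the 9 genes reached in 18 other settings. STRN3, the striatin that links PP2A to kinases of this branch, read 10.28, 10.31, 10.51 and 10.43 with YAP1/TAZ siRNA, against 10.26, 10.04, 10.27 and 10.27 with control siRNA. Its groups were only 0.01 apart, the last digit of the deposited values, and control replicate 2 was the lowest array. The difference was 0.17 (SE 0.077, 95% interval −0.0016 to 0.35, limma adjusted p = 0.488). Without the arrays that stood apart it was 0.22 (limma adjusted p = 0.282).

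The TAO kinases differed in sign from each other. TAOK3 read 5.51, 5.52, 5.55 and 5.50 with YAP1/TAZ siRNA, against 5.71, 5.74, 5.57 and 5.73 with control siRNA. The groups were 0.02 apart, with control replicate 3 near the YAP1/TAZ siRNA arrays. The difference was −0.17 (SE 0.054, 95% interval −0.29 to −0.046, limma adjusted p = 0.309), and −0.15 without the arrays that stood apart (limma adjusted p = 0.269). TAOK1 read 12.04, 12.08, 12.07 and 12.11 with YAP1/TAZ siRNA, against 12.09, 12.01, 11.98 and 11.83 with control siRNA. Its groups overlapped through control replicate 1, and the difference was 0.098 (SE 0.062, 95% interval −0.044 to 0.24, limma adjusted p = 0.665). Without the arrays that stood apart it was 0.047 (limma adjusted p = 0.714), and without control replicate 4 alone 0.048 (adjusted p = 0.877).

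TAOK1 minus TAOK3 within an array was 6.53, 6.56, 6.52 and 6.61 with YAP1/TAZ siRNA, against 6.38, 6.27, 6.41 and 6.10 with control siRNA. Each YAP1/TAZ siRNA array was above each control array for this within-array difference. The shift was 0.27, with a 2-sided exact permutation p of 0.0286, the smallest that 4 arrays against 4 can give, and 0.0571 after adjustment over 2 paralogue contrasts. It did not pass, but with FAT1 minus FAT4 at an exact permutation p of 0.429, no smaller adjusted value could be reached. The test could therefore not decide on this shift. The shift was 0.20 without the arrays that stood apart. As TAOK3 was only a little brighter than the median gene, this is a shift of signals and may not be one of transcripts.

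The other genes of the branch gave no call either. Of 56 listed, 50 were measured, and by limma 0 passed across all genes. The unadjusted p was under 0.05 for 6 of the 50 (10.3% of all genes), and the groups did not overlap for 4 of the 50 (6.22% of all genes), shares near those of all genes. The differences of the 50 had a median of 0.029, with 34 above 0 and 15 below. Over all 22411 genes the median was 0.0075, with 11842 above 0 and 10337 below. Among 6 further giant cadherins and their regulators the median was 0.041 with 4 above 0, and FAT3, a relative of FAT4, differed by 0.15 (limma adjusted p = 0.338) and CELSR1, a planar polarity cadherin, by 0.11 (adjusted p = 0.46). The 8 FERM and KIBRA scaffolds had a median of −0.0087 with 4 above 0. Of these, NF2, the tumour suppressor merlin, differed by 0.20 (limma adjusted p = 0.487) and FRMD1 by −0.072 (adjusted p = 0.76). Among the 5 other TAO and MAP4K kinases the median was −0.02 with 2 above 0, and TNIK, a MAP4K relative, differed by −0.11 (limma adjusted p = 0.672) and MAP4K5 by 0.09 (adjusted p = 0.69).

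STRIPAK, the complex that holds STRN3, had 16 further subunits measured with a median of 0.041. Of these 13 lay above 0, as did 11842 of all 22411 genes, and whether the subunits moved together was not tested. PPP2R1B, a scaffold subunit of PP2A, read 9.42, 9.28, 9.74 and 9.64 with YAP1/TAZ siRNA, against 9.00, 9.12, 9.06 and 8.71 with control siRNA. Its groups did not overlap, and the difference of 0.55 (SE 0.12, limma adjusted p = 0.134) was the largest among the 50 genes. With the arrays that stood apart as a block it passed (adjusted p = 0.0167). STRN4, a striatin like STRN3, differed by 0.23 (limma adjusted p = 0.354). Polarity genes had a median of 0.033 over 8 measured with 6 above 0, and LLGL1 and PALS1, cell polarity scaffolds, differed by 0.12 and 0.057 (limma adjusted p = 0.652 and 0.812). The 7 core Hippo genes had a median of 0.045 with 5 above 0. LATS2, the kinase that phosphorylates YAP1, differed by −0.39 (SE 0.069, limma adjusted p = 0.0783) and passed without the arrays that stood apart (adjusted p = 0.0348). MOB1B, a LATS co-activator, differed by 0.13 (limma adjusted p = 0.589).

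**Figure D4:**
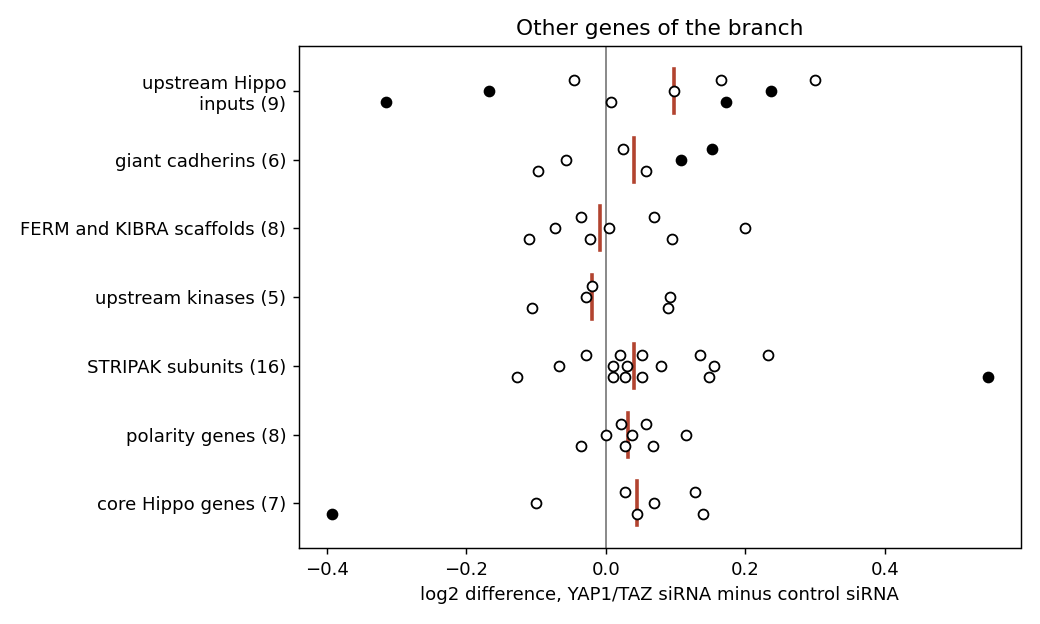
Log2 difference, YAP1/TAZ siRNA minus control siRNA (horizontal axis), of every measured gene of the branch, by group with its number of genes. Filled points mark genes whose groups do not overlap and red lines the median of each group. PPP2R1B at 0.55 and LATS2 at −0.39 are the outermost points, and none of the genes passed the test.

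Genes with the most similar course over the 8 arrays were looked up for the 3 members with the smallest p, among 9503 protein-coding genes brighter than that median. The best of so many are close to 1 by selection, and the arrays share the group difference and the pair that stood apart, so these values are a description. For FRMD6 they were LUM, a collagen-binding proteoglycan (Pearson r = 0.976), the protease ADAM17 (0.953) and the receptor TGFBR1 (0.951). MAP4K4 was closest to GNAI2, a G protein subunit (0.995), CNIH2 (0.993) and PPP2R1B (0.992). Closest to TAOK3 were DNAJC16 (0.969), the lysyl oxidase LOX (0.961) and PRCP (0.951). Taken as deviations from the group means, the 9 values of r were 0.837 to 0.984.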

How the data were processed

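The authors deposited log2 signals per transcript cluster with 2 decimals. Per the submitters' processing notes, Transcriptome Analysis Console made them, and per the labels' protocols the arrays were hybridised with biotinylated cRNA. The log2 scale was inferred from the values. Not given in the sources used here are its version, the summary method, the normalization and the arrays' build. Summarising many probes can compress fold changes.

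Groups came from the sample titles. Of 67528 clusters, 23781 had 1 gene symbol, updated through RefSeq names (GRCh38.p14), and the cluster with the highest mean stood for each of 22411 genes. The tool was limma (version 3.58.1, R 4.3.3) with a linear model of the siRNA group alone and moderated variances, adjusted by Benjamini-Hochberg over all genes, with a threshold of 0.05. On simulated data with 200 changed genes the fit recovered 68% of log2 changes of 0.5 and 95% of changes of 1. Noise was drawn independently for each gene, without arrays that stood apart, and both changes were larger than any member's difference. The simulation therefore does not give the power for differences as small as those of the members. Paralogue contrasts used 2-sided exact permutation tests. The number of arrays limits the precision.

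The members and lists were chosen with earlier results of these data known. Named are all members, the siRNA targets, pathway list genes past the threshold, the 2 smallest p of each pathway list, and the 3 genes most like each of the 3 members with the smallest p. CD99, NKX2-2 and LIPI, of the marker lists, were named after their values were seen. Alternatives were the replicate block, quantile normalization, centring, a filter on dim genes, the mean of clusters, limma-trend, array weights, all clusters, and leaving out each array. Leaving out the arrays that stood apart and fitting them as a block were added after seeing the data.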

Additional observations from a re-analysis of the deposited data

Results flagged for a closer look

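In 6 of 54 groups of 4 arrays examined, 1 array lay far from the other 3 by Dixon's test, a rule that chance meets in about 1 of 20 groups. DCHS1 read 9.25 on YAP1/TAZ siRNA replicate 2, where the other YAP1/TAZ siRNA arrays read 10.00 to 10.15. FRMD6 read 8.40 on control replicate 4, where the other controls read 8.16 to 8.20. TNIK read 4.29 on YAP1/TAZ siRNA replicate 2, where the others read 4.04 to 4.06. These 3 readings are from the arrays that stood apart on the first principal component. STRN3 read 10.04 on control replicate 2, against 10.26 to 10.27, and the cluster shared by WWC2 and CLDN22 read 9.27 there, against 9.16 on each other control. YAP1 read 6.27 on YAP1/TAZ siRNA replicate 1, where the others read 6.40 to 6.42.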

How the results depend on the processing

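No upstream gene passed in any of the 18 other settings it was tested in (adjusted p 0.0561 to 0.997). WWC1 and FAT1 were tested in 17, since the filter on dim genes left them out. All but WWC1 kept their direction wherever tested. WWC1 turned, to −0.0025 with centring, −0.079 with the mean of clusters, −0.025 with array weights and −0.027 without both arrays that stood apart. Leaving out 1 array gave WWC1 −0.035 to 0.028. The 50 pathway genes had 0 calls, but 3 with array weights (LATS2, PPP2R1B, STRN4), 1 without both arrays that stood apart (LATS2) and 2 with them as a block (LATS2, PPP2R1B). In those settings 559 (2.49%), 188 (0.839%) and 439 (1.96%) of all genes were called, against 48 (0.214%). With the replicate block 3 of all genes were called, and without YAP1/TAZ siRNA replicate 2 166. WWTR1 kept −0.62 but missed the threshold with the replicate block (adjusted p = 0.147) and with every transcript cluster tested (0.0532), and ran from −0.65 to −0.58 when 1 array was left out. The replicate block gave TAOK1 minus TAOK3 a sign-flip p of 0.125, the smallest that 4 pairs can give, so this test could not pass. Correlations of deviations between same-numbered arrays were 0.37, −0.47, 0.016 and −0.39 for replicates 1 to 4. Those of replicates 2 and 4 each involve an array that stood apart, so they do not settle whether the replicates pair. The causes of these shifts were not tested. Signal over background was not analysed, which limits what WWC1, FAT1 and TAOK3 can show.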
